A study of Mus musculus with 2 samples.

Results

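The genes described here were 8 members of the interferon-induced IFIT and ISG15 pathway, namely Ifit1, Ifit2, Ifit3, Isg15, Usp18, Herc6, Uba7 and Ube2l6. They were selected on the difference between the same 2 arrays that is described here, so their direction and size are a description. They were found on the arrays through the RefSeq transcript that each probe was designed for, which gave 10 probes of the 39429 non-control probes, and 8 of the 20659 genes that could be named. Every one of the 8 genes had at least 1 probe, Isg15 and Herc6 had 2, and each probe was printed in 1 spot per array. All 10 probes were well above background, unflagged and unsaturated on both arrays, so no member was lost to a filter on low values.

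RNA came from monocytic myeloid-derived suppressor cells (M-MDSCs) taken out of tumours that the mouse mammary carcinoma line 4T1 had formed under the skin. Both groups consisted of female mice of the strain labelled BABL/c that had received 1000000 tumour cells after a day without food. They were then kept for 16 days either on a normal-salt diet (NSD) or on a high-salt diet (HSD). Chow held 0.4% NaCl for NSD, which was given with tap water. For HSD it held 4%, and the water also held 1% NaCl. Cells defined in the methods as CD11b+ Ly6-C+ were isolated with a kit for these cells and mixed in equal numbers within a group, and each group was hybridised to 1 single-colour Agilent array. The methods give an age range for the study's mice in general and not for these pools. With 1 array per group the spread between mice is unknown, so every difference below compares 2 arrays and carries no p-value.

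Type I interferons bind the receptor encoded by Ifnar1 and Ifnar2, which activates the kinases JAK1 and TYK2 and brings transcription factors, STAT2 and IRF9 among them, to interferon-stimulated response elements in DNA. The IFIT proteins, among the most strongly induced products of this pathway, carry tetratricopeptide repeats and bind foreign RNA. ISG15 is a ubiquitin-like protein that is joined to other proteins by UBA7 (the activating enzyme), UBE2L6 (the conjugating enzyme) and HERC6 (the main ligase in mice). USP18 takes ISG15 off again and also restrains the interferon receptor.

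The response element has repeats of GAAA at its core, and this core was sought in the promoters because 7 of the 8 members were lower together. The letters GAAA, then any 2 bases, then GAAA, on either strand (TTTC, any 2 bases, TTTC when read from the other) and with overlapping matches counted, were looked up in windows running from 250 bases before to 50 bases after each RefSeq start site. Of all 32851 windows 3.44% held the core, and by gene it was 3.99% of 27025 genes. Of the 7 members with a window, 3 held it, namely Isg15, Ifit1 and Ifit3. The core was absent from the windows of Ifit2, Herc6, Uba7 and Ube2l6, which says only that these letters are not in those windows. The remaining member is Usp18. The stretches below are shown because they hold the matches, which are in capitals. They are RefSeq sequences of the C57BL/6J reference, build GRCm38.p6, each of 100 bases, read 5′ to 3′ along the strand of the gene and lying upstream of its start site. The stretch of Isg15 is chr4:156200836-156200935 on the minus strand, that of Ifit1 chr19:34640749-34640848 on the plus strand and that of Ifit3 chr19:34583345-34583444 on the plus strand.
Isg15: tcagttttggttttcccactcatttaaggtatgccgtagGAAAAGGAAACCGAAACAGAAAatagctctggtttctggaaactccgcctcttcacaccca
Ifit1: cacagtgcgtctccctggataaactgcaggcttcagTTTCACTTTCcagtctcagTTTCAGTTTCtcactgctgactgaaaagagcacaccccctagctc
Ifit3: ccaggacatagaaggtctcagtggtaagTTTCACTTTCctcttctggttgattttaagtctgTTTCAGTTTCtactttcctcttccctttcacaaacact
Isg15 held 3 overlapping matches, the first beginning 78 bases before its start site. Ifit1 and Ifit3 held 2 separate matches each, and the pair of motifs was the same in both, with the first at 104 and 156 bases before the start. These matches are letters in a reference genome and were not measured as sites of binding.

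Signals are given in the intensity units of the scanner software, and log2 fold changes are HSD over NSD, taken after the 75th percentile of each array (252 units for NSD and 233 for HSD) was set to the same level. The software's own error for the member spots was 10.0% to 10.1% of the signal. This gives an error of 0.20 for a log2 fold change, which covers measurement within an array and not the spread between mice. The software's error was nearly the same share of the signal at every member spot, bright or dim. Repeated spots of other probes gave a smaller SD, 0.12 for a difference between arrays. Orders called resolved or not below refer to the software's error. In pooled RNA, fewer cells of a type and less RNA per cell cannot be told apart.

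Signals of all 8 genes were lower on the HSD array. At least a 1.5-fold lower value was seen for 7 genes, where 10.3% of the 16312 genes with a usable probe were that much lower. None of the 8 was at least 1.5-fold higher, against 9.86% of all genes. By probe, 9 of the 10 were at least 1.5-fold lower and none higher, where 8.91% of 29628 usable probes were lower and 10.2% higher. The contrast between these arrays was known when the members were chosen, so nothing is read from these shares. The median log2 fold change over the members was −2.43, and over all usable genes it was 0.045. Those 7 genes were also at least 2-fold lower, as 4.17% of all genes were (2.62% were 2-fold higher), and 5 of them were at least 4-fold lower, as 0.932% of all genes were.

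**Figure D1:**
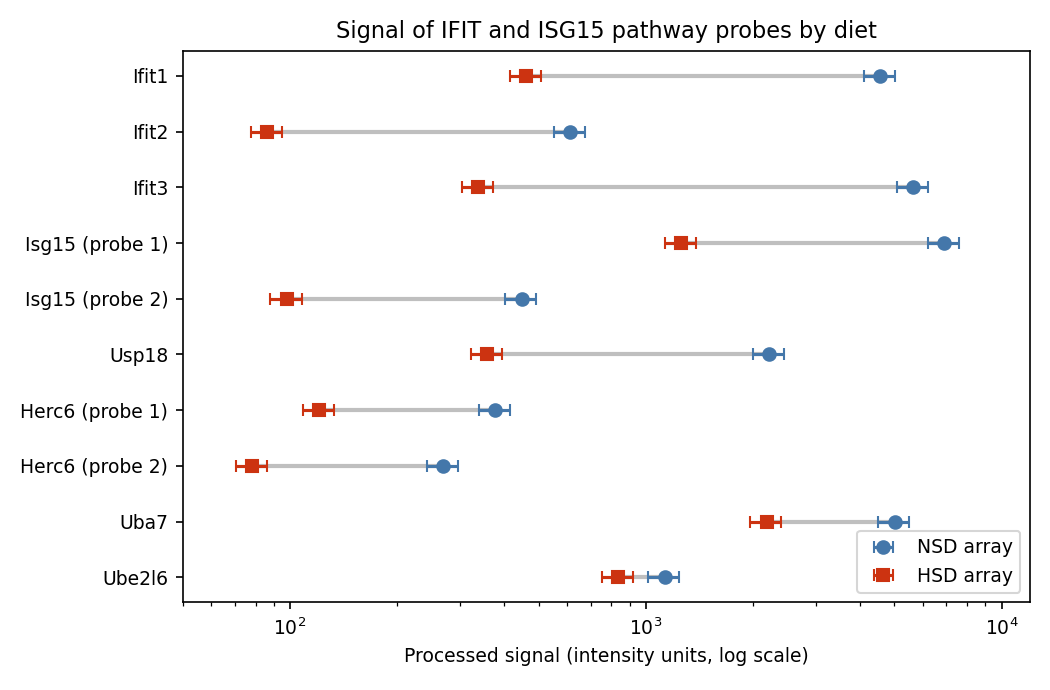
Processed signal of the 10 member probes on the NSD array (circles) and the HSD array (squares), in intensity units on a log scale, with bars for the software's error of each spot and 1 array per group. The HSD signal lies left of the NSD signal for every probe, from 337 against 5648 units for Ifit3 to 837 against 1130.0 units for Ube2l6.

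Ifit3 and Ifit1 showed the largest differences of the 8, and Ifit2 followed within the error of Usp18. Ifit3 had a signal of 5648 ± 565 units on the NSD array and 337 ± 33.8 units on the HSD array. Its log2 fold change was −3.95 ± 0.20, or 15.5-fold lower, and of the 27236 probes that were well above background on each array it had the 6th lowest value. Ifit1, which recognises RNA whose cap lacks the methylation found on the host's own messages, fell from 4564 ± 456 to 462 ± 46.2 units, a log2 fold change of −3.19 ± 0.20. Ifit2, a partner of the other IFIT proteins in antiviral complexes, had the dimmest NSD signal of the 3, at 611 ± 61.1 units, and 86.2 ± 8.67 units on the HSD array. Its log2 fold change was −2.71 ± 0.20. All 3 genes thus kept between 6.47% and 15.3% of their scaled NSD signal on the HSD array.

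ISG15 itself and the protease that removes it lay next in order. The brighter Isg15 probe had 6891 ± 689 units on the NSD array and 1256 ± 126 units on the HSD array, a log2 fold change of −2.34 ± 0.20. The other Isg15 probe was dimmer, with 448 and 98 units, and its log2 fold change was −2.08 ± 0.20. The difference between the probes, 0.26, was smaller than its error of 0.29. Usp18 went from 2220.1 ± 222 to 358 ± 35.9 units, a log2 fold change of −2.52 ± 0.20, or 5.72-fold lower. The gene of the modifier and the gene of its protease therefore differed by 0.18 in log2 fold change, within the error of 0.29.

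Of the 3 enzymes that attach ISG15 to proteins, 2 were at least 1.5-fold lower, and all 3 had smaller differences than Isg15. Herc6, the ligase at the last step, had 377 ± 37.7 units for NSD and 121 units for HSD with its brighter probe, a log2 fold change of −1.53 ± 0.20. Its second probe had 269.9 ± 27.0 and 78.3 ± 7.89 units and a log2 fold change of −1.67 ± 0.20, so that both probes gave about 3-fold lower signals (2.89 and 3.19). Uba7, the activating enzyme at the first step, had 5001 ± 500.1 units on the NSD array and 2187 ± 219 units on the HSD array. Its log2 fold change was −1.08 ± 0.20, or 2.11-fold lower. Ube2l6, the conjugating enzyme between them, had 1130.0 ± 113 and 837 ± 83.7 units. Its log2 fold change of −0.32 ± 0.20, or 1.25-fold, did not reach 1.5-fold, and 17.6% of the probes measured on both arrays had a value as low or lower. Along the 3 steps of conjugation the signals were thus 2.11-fold, 1.25-fold and 2.89-fold lower.

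When the 8 genes were put in order of their log2 fold change, some neighbours were separated by more than the software's error and others were not. Ifit3 was below Ifit1 by 0.76, Isg15 below Herc6 by 0.81 and Uba7 below Ube2l6 by 0.76, each over 2 times the error of 0.29. For Isg15 and Herc6 this is the gap between their brighter probes. Their other probes, at −2.08 and −1.67, lay closer together, so that separation depends on the probe. The steps from Ifit1 to Ifit2 (0.48) and from Herc6 to Uba7 (0.45) were between 1 and 2 times that error. Ifit2, Usp18 and Isg15 followed each other at 0.20 and 0.18, less than the error, and their order is not resolved by it.

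**Figure D2:**
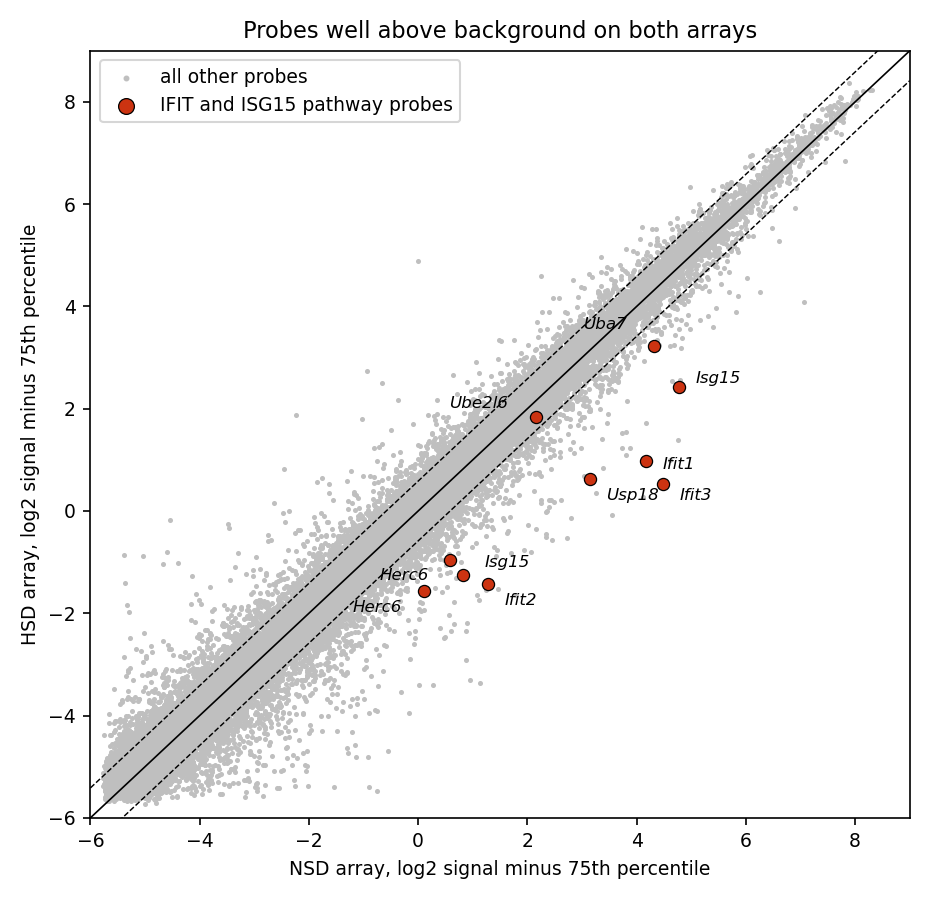
log2 signal minus the 75th percentile on the NSD array (horizontal) and the HSD array (vertical) for the 27236 probes measured above background on each array, with the 10 member probes named. The solid line marks equal values and the dashed lines 1.5-fold, and 9 of the 10 member probes lie below the lower dashed line while Ube2l6 lies inside.

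Spots printed near the members had median differences near 0. Between 190 and 317 measured spots lay within 10 rows and 10 columns of each member spot, and their median log2 fold change was between −0.013 and 0.11. Local background was 16 to 18 units at the member spots of the NSD array and 16 to 19 units on the HSD array, and the lowest member signal was 78.3 units. Across 289 probes printed in several spots and measured on both arrays, log2 signals of the same probe varied with a median SD of 0.082. The spiked-in control transcripts that were measured on both arrays, 4 of 10, had a median difference of 0.0061 in unscaled log2 signal, with a range of −0.16 to 0.18.

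Other genes of the IFIT cluster and of the ISG15 system were described from a list of 7, all of which were measured on both arrays. In the RefSeq gene order Ifit2, Ifit3, Ifit1bl1, Ifit3b, Ifit1bl2 and Ifit1 follow each other on chromosome 19, and these paralogues did not go the same way. Ifit3b, a near copy of Ifit3, went from 4352 to 280.1 units, a log2 fold change of −3.84 with its brighter probe and −2.84 with its other one. The probes of Ifit3 and Ifit3b could not be checked for cross-hybridisation, so their values may not be independent. Ifit1bl1 was higher on the HSD array, with 560.02 units for NSD and 959 for HSD and a log2 fold change of 0.89. Ifit1bl2 was higher too, with 3707 and 5374 units and a log2 fold change of 0.65. Ifit1bl1 stayed at least 1.5-fold higher under all 9 alternative settings, whereas Ifit1bl2 was higher but under 1.5-fold in 5 of the 9, with a lowest value of 0.50.

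The promoter stretches of these paralogues are shown because Ifit1 and Ifit1bl2 moved apart although they lie head to head. The start sites used for these stretches had 145 bases between them, and 99 bases of the stretches are the same DNA read from opposite strands. The Ifit1bl2 stretch, chr19:34640750-34640849 on the minus strand, therefore held the same pair of motifs as that of Ifit1. Another window of Ifit1bl2, at a different RefSeq start site, did not hold the core. Which start site the measured transcript uses was not examined. The Ifit3b stretch, chr19:34607741-34607840 on the plus strand, matched that of Ifit3 at 100 of 100 bases. One window of Ifit1bl1, chr19:34602018-34602117 on the minus strand, held a different match.
Ifit1bl2: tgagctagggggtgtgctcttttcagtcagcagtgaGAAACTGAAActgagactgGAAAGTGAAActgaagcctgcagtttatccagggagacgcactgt
Ifit3b: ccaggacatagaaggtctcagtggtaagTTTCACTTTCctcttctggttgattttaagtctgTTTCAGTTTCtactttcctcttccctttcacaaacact
Ifit1bl1: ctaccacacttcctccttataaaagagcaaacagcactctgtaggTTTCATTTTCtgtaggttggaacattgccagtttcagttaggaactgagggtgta
Of the other type I targets named below, 8 of the 17 with a window held the core, as did 4 of 10 interferon ligands, 1 of 9 receptor and signalling genes, 0 of 16 genes of other ubiquitin-like systems and 0 of 7 other proteases. Genes with the core upstream included some that were lower on the HSD array (Ifit1, Ifit3, Ifit3b, Isg15, and also Bst2, Rsad2 and Stat2, described below). They also included Ifit1bl1 and Ifit1bl2, which were higher. Over the array, with the 8 members left out, 16.8% of the 506 usable genes whose window held the core were at least 1.5-fold lower and 7.91% at least 1.5-fold higher, and of the 12445 genes whose windows did not hold it 9.89% were lower and 9.92% higher. The 506 genes still included Ifit3b and other type I targets such as Rsad2 and Bst2. These shares are therefore not independent of the fall that led to the search. Whether the core had a part in the differences was not tested.

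The remaining genes of that list had smaller differences, in the other direction for most. Trim25, a ubiquitin ligase that can also attach ISG15, had 5369 and 4807 units for NSD and HSD and a log2 fold change of −0.045. Arih1, another ligase reported to attach ISG15, had a log2 fold change of 0.55. Itgal and Itgb2, the chains of the integrin LFA-1 that serves as a receptor for ISG15 outside cells, had log2 fold changes of 0.47 and 0.54. Of the 7 genes, 1 was at least 1.5-fold lower (Ifit3b) and 2 were at least 1.5-fold higher (Ifit1bl1 and Ifit1bl2), and the median was 0.54.

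Of 10 interferon ligand genes listed, 9 had a probe, 6 had a usable one and 5 were well above background on both arrays. None of these 5 differed by 1.5-fold between the arrays. Ifnb1, the gene of interferon β, had 6.78 units on the NSD array and was not well above background on the HSD array, which bounds it at no less than 1.42-fold lower and leaves unknown whether it passed 1.5-fold. Ifna5 had 51.8 and 41.1 units (log2 fold change −0.22), Ifna1 33.7 and 33.5 units (0.11), and the interferon λ gene Ifnl3 109 and 107 units (0.078). The α genes are close copies of each other, and their probes may share signal.

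The receptor and its signalling genes were split. Of 10 such genes, all measured on both arrays, 4 were at least 1.5-fold lower and none higher, with a median log2 fold change of −0.41. The receptor chain genes Ifnar1 and Ifnar2 had log2 fold changes of −0.46 and −0.026, and the kinase gene Jak1, with 5468 and 6408 units, had 0.34. The transcription factor genes Stat2 and Irf9 were both lower, with log2 fold changes of −0.87 and −0.96. Irf7, a transcription factor that is itself induced by interferon and amplifies the response, had 373 units for NSD and 57.0 for HSD and a log2 fold change of −2.60, which became −1.74 with the normexp background correction. Irf1 had 2 probes that disagreed in sign, with log2 fold changes of −0.37 and 0.16.

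Of 25 other targets of type I interferon, 23 had a usable probe, and 22 of these were at least 1.5-fold lower while none was 1.5-fold higher. Their median log2 fold change was −1.58, and they ranged from −4.26 for Ifi44 to 0.028 for Samd9l. Dtx3l was counted as lower on its brighter probe (−1.14), while its other probe had −0.12. Among the brightest, Oasl1, of the family of oligoadenylate synthetases, had 14566 and 4272 units (log2 fold change −1.66) and Oas1a 13102 and 4556 units (−1.41). Samd9l, an antiviral protein gene with 9556 and 9000.5 units, was the one that did not reach 1.5-fold, and its probes had log2 fold changes of 0.028 and 0.032. Its sign depended on the setting, from −0.092 to 0.11. Among the signalling genes and these targets, to which the rule for likeness was limited, the 3 genes closest to the members' median were Irf7, Bst2, which encodes the tetherin that holds budding virus (−2.22), and Rsad2, which encodes viperin (−2.71). That likeness rests on 1 difference between 2 arrays, and the order among the 3 changed with normexp. The macrophage marker Mertk, outside that rule, was closer still, at −2.52. Results for these targets are not independent of those for the members, since a fall in interferon-induced genes had been seen before the lists were written.

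Genes of related enzymes outside the interferon pathway were described for contrast. Over all usable genes, 10.3% were at least 1.5-fold lower and 9.86% at least 1.5-fold higher. At these shares, lists this short would hold few such genes. Of 23 genes of ubiquitin and of other ubiquitin-like systems, which include Ube2l3, of the same family as Ube2l6, and the HERC ligases Herc1 to Herc4, none was at least 1.5-fold lower and 1 was higher (Uba6), with a median log2 fold change of 0.040. The ubiquitin gene Ubb had a log2 fold change of 0.067, and Ube2l3 had 0.16. Of 11 genes of other ubiquitin-specific proteases, the family to which Usp18 belongs, none was at least 1.5-fold different in either direction, and the median was 0.083. The brightest of them, Usp25, Usp15 and Usp7, had log2 fold changes of −0.12, 0.31 and 0.55. Their other probes had 0.14, 0.32 and −0.13.

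**Figure D3:**
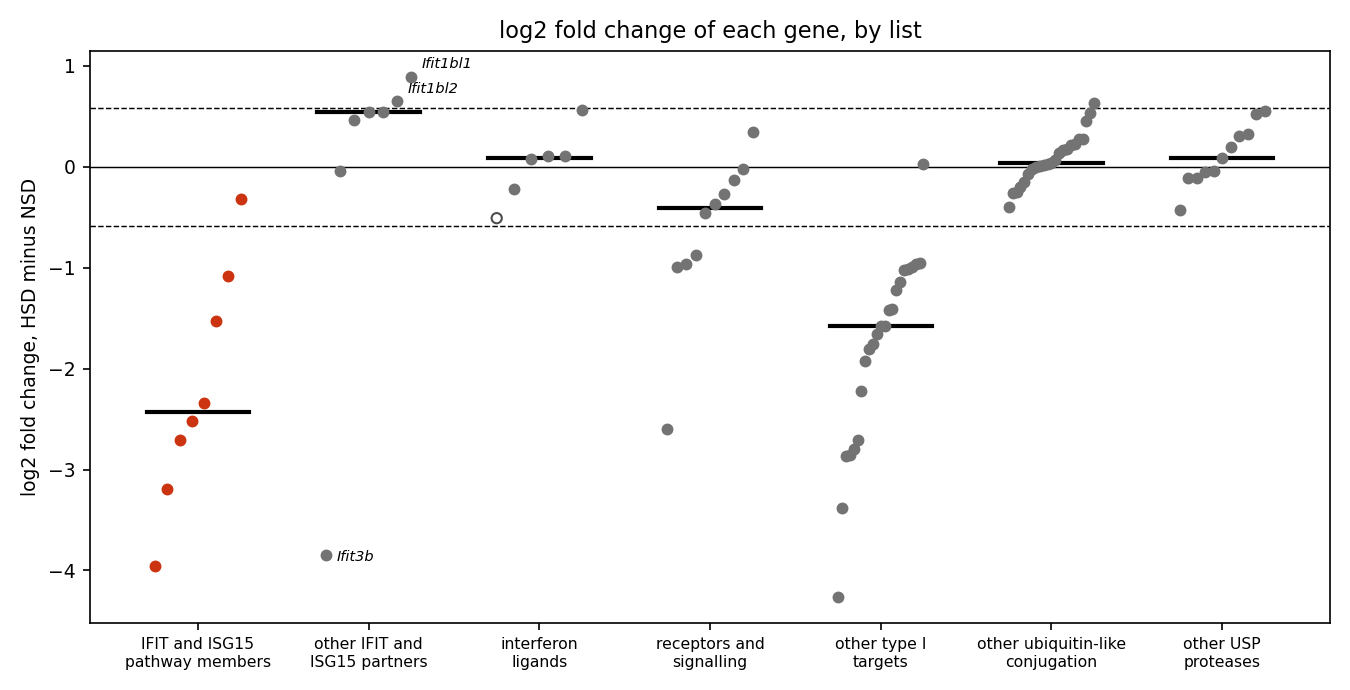
log2 fold change (HSD minus NSD) of each gene with a usable probe in each list, with the median as a bar, dashed lines at 1.5-fold, and an open circle where the value is a bound. The members (median −2.43) and other type I targets (median −1.58) lie mostly under the lower dashed line, and Ifit1bl1 and Ifit1bl2 lie above the upper one.

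The cell type label was checked with marker genes. The signals of Itgam and Ly6c1, which mark M-MDSCs, were 31564 and 51811 units for NSD and 31043 and 48478 for HSD, with log2 fold changes of 0.090 and 0.018, while Arg1 was dim on both arrays. These are values of the brightest probe. The other Ly6c1 probe had −0.42, and the 3 Itgam probes ranged from 0.073 to 0.47. Of the 7 usable genes of that list, 1 was at least 1.5-fold lower (Ccr2, −0.78) and 1 at least 1.5-fold higher (Cd14, 0.82). Granule and neutrophil genes were bright as well, with Camp at 61817 and 59919 units, and of 5 usable neutrophil genes 1 was at least 1.5-fold lower. Of 6 macrophage markers, 4 were at least 1.5-fold lower (Mrc1, Apoe, Mertk and C1qa, the last by its bound). Mrc1 went from 134 to 5.49 units, 22.6-fold lower and so nominally by more than any member. That HSD signal was close to 4.39 units, the lowest well above background on the HSD array, so the size for Mrc1 is uncertain. Mertk went from 95.9 to 15.4 units (−2.52). Adgre1 had −0.55 and C1qb 0.33. The summed macrophage signal, 14136 units for NSD and 8673 for HSD, came mostly from Adgre1 and Apoe. Of 5 markers of plasmacytoid dendritic cells, a main source of interferon, 1 was at least 1.5-fold lower, and Siglech had 13705 and 13214 units. The summed signals were 873 and 763 units for T and NK cell markers, 2569.7 and 2997 for B cells, 106 and 87.9 for conventional dendritic cells, 130.2 and 103 for fibroblasts, 87.0 and 92.1 for carcinoma cells, and 246 and 271 for endothelial cells. Of 4 usable carcinoma markers, 3 were at least 1.5-fold higher (Epcam with a log2 fold change of 0.70, Krt8 with 0.61 and Krt18 with 0.76), and Cdh1 had −0.43. At least 1.5-fold lower were 1 of 4 markers of T and NK cells, 1 of 4 of conventional dendritic cells (with 1 higher) and 1 of 3 of fibroblasts, and none of 3 for B cells or of 3 for endothelial cells. The endothelial marker Kdr was counted on its brighter probe (0.28), while its other probe had −2.49. Macrophage markers were lower for 4 of 6, and carcinoma markers were higher, at low signals, for 3 of 4. The part of other cell types in the result was not tested.

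**Figure D4:**
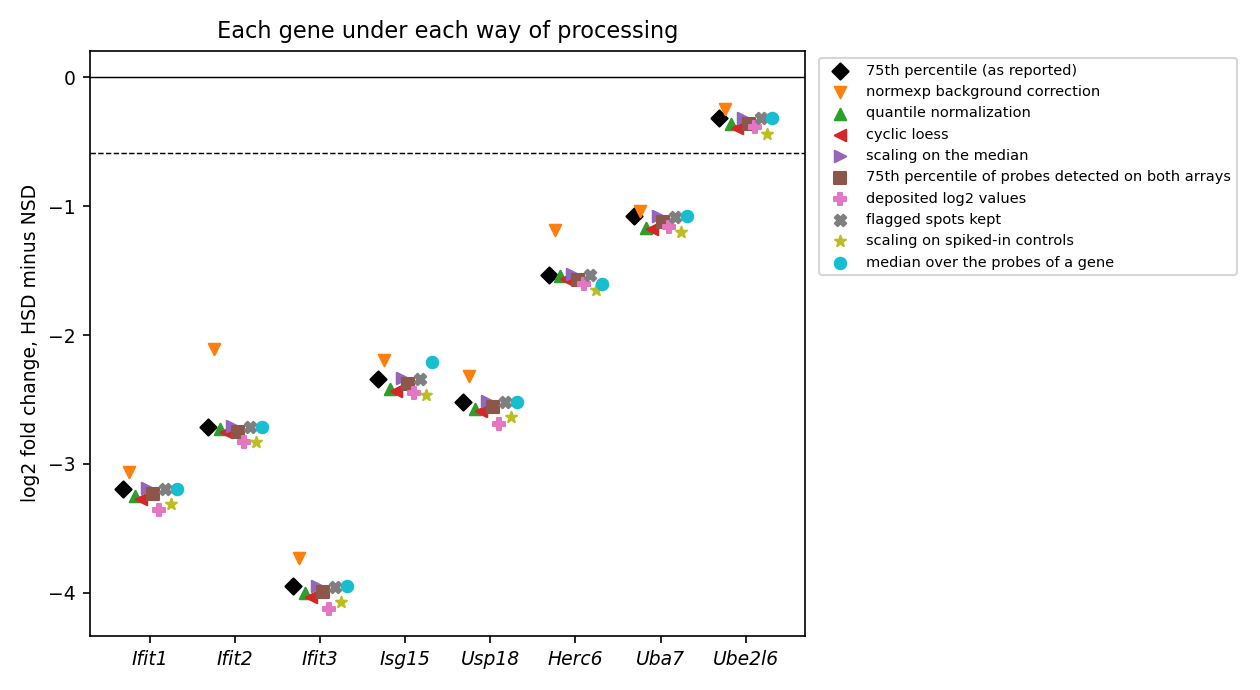
log2 fold change (HSD minus NSD) of the 8 members as reported and under 9 other ways of processing, with a dashed line at 1.5-fold lower and 1 array per group. Every point is below 0, Ube2l6 stays above the dashed line throughout, and the normexp correction gives the smallest size for each gene, as for Ifit2 with −2.11 against −2.71.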

How the data were processed

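M-MDSC RNA pooled over the mice of a diet group was hybridised to 1 Agilent Mouse GE v2 array per group. The authors deposited the scanner output of Feature Extraction 11.0.1.1, with a background-corrected intensity and its error for each spot, not normalized between arrays. The authors also deposited log2 values from GeneSpring. In these, 99.7% of the sorted values of the 2 columns were equal within 0.001, so the columns share 1 distribution.

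Spots flagged as outliers were left out, log2 signals of a probe's spots were averaged, and each array was scaled by subtracting its 75th percentile. A probe counted as well above background when at least 50% of its spots did. Where a probe was dim on 1 array, its fold change was a bound, taken against the lowest signal well above background there or its own signal if higher (4.61 units for NSD, 4.39 for HSD). Probes were named through RefSeq transcripts (assembly GRCm38.p6), and the probe with the highest mean log2 signal stood for a gene. The probes were designed on an earlier build. No gene coordinates are given, and promoter coordinates are those of the RefSeq windows.

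A gene was counted at 1.5-fold. There was no replicate and no test, and having 1 array per group limits the precision. The code that counts values past the threshold was run on simulated data with planted changes larger than the threshold and no spread between mice. That run checks the code only and gives no rate of false calls for these arrays. The members and lists were chosen with earlier results of these data known. Named genes were the 8 members, the IFIT and ISG15 partner list, the 3 brightest genes of each other list, and the 3 genes nearest to the members' median. Some genes that this rule or the lists hold are not reported here. Stat2, Irf9, Ifnar1, Ifnb1, Ifi44, Dtx3l, Uba6, Ube2l3 and the cell type markers were named after their values were seen. Python 3.11.15, numpy 2.4.6, pandas 2.3.3, matplotlib 3.10.9, R 4.3.3 and limma 3.58.1 were used. Alternatives were normexp on the median spot and background intensities with an offset of 50, quantile normalization, cyclic loess, scaling on the median, on probes measured on both arrays or on spiked-in controls (added after seeing the data), the deposited log2 values, flagged spots kept, the median over probes, other filters and a 2-fold threshold.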

Additional observations from a re-analysis of the deposited data

How the results depend on the processing

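All 72 values of single members under 9 alternative settings were below 0, and 54 of them moved by no more than 0.12, the SD of a difference between single spots on the log2 scale. The count of 7 members at least 1.5-fold lower and 0 higher was the same under all 12 alternatives, a 2-fold threshold, no filter and a filter for both arrays among them. The members' median of −2.43 became −2.15 with the normexp correction, −2.57 with the deposited log2 values and −2.55 with scaling on spiked-in controls. With the same settings, the median of the other type I targets (−1.58) became −1.39, −1.73 and −1.70. That of the receptor and signalling genes (−0.41) became −0.22 with normexp and −0.53 with spiked-in controls. The median of the other IFIT and ISG15 partners (0.54) became 0.42 both with cyclic loess and with spiked-in controls. Scaling on spiked-in controls also gave −0.031 for the interferon ligands, −0.080 for the other ubiquitin-like systems and −0.037 for the other proteases. The median over all genes lay between −0.076 with spiked-in controls and 0.065 with normexp. Of probes past 1.5-fold, 53.4% were higher as reported, 42.4% with cyclic loess and 35.6% with spiked-in controls, and normexp left 961 higher and 923 lower in place of 3030 and 2639. Irf7 was −1.74 with normexp in place of −2.60. The cause of these shifts was not tested. No paired analysis was possible because each group has 1 array. With normexp, Ifit2 (−2.11) had a smaller size than Isg15 (−2.20) and Usp18 (−2.32), and Bst2 (−2.10) lay closer than Irf7 to the members' median. Limits include a single array per diet, a single spot per probe, pooled RNA, unchecked cross-hybridisation and members chosen on the same contrast.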
